A study of Homo sapiens with 30 samples.

Results

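The question was what oleic acid alone, without any betacellulin, changed in LX2, a human cell line derived from hepatic stellate cells in their activated state. The comparison was between 10 of the 30 libraries of the series, the 5 of the group OLA+Veh and the 5 of the group Veh+Veh, chosen by their labels and paired by experiment. All 30 libraries entered the fit, so the other groups shaped its shared spread and its experiment terms. OLA+Veh cultures received oleic acid (18 carbons, 1 double bond) at 50 µM, carried by albumin at 20 µM, over 2 treatment cycles of 48 h each, followed by the vehicle of betacellulin in medium with 1% serum. A sample label gives 72 h for the oleic acid and a protocol field gives 96 h, so its length is not settled here. Veh+Veh cultures received neither agent in the same medium, and whether they were given albumin is not stated in the labels. OLA+BTC and Veh+BTC cultures had the same pretreatments and then betacellulin (BTC, a ligand of the ErbB receptors) at 20 ng/ml for 72 h. DHA+Veh cultures received docosahexaenoic acid (DHA; 22 carbons, 6 double bonds) in place of oleic acid at the same 50 µM. Each of 5 experiments held 1 culture of every group. All cultures were of 1 cell line and are not stated to be separate passages, so the p-values cover variation among these cultures only.

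Hepatic stellate cells store retinoids and lipid in the healthy liver and lay down collagen once activated. Oleic acid is the most abundant monounsaturated fatty acid of human fat and of serum. Inside a cell, fatty acids are bound to coenzyme A, stored as triglyceride in droplets or burned in mitochondria and peroxisomes, and they are ligands of the nuclear receptors PPARα, PPARδ and PPARγ, whose targets include ANGPTL4, PLIN2 and CPT1A. Polyunsaturated fatty acids also hold back SREBP1, the factor that drives fatty acid synthesis and the desaturase SCD, while SREBP2 drives cholesterol synthesis.

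Polyadenylated RNA was counted by 3′ tag sequencing, so a level in CPM (counts normalised to the library total) needs no correction for gene length. Library totals ran from 3100482 to 5012722 reads in OLA+Veh and from 2569815 to 9490142 reads in Veh+Veh, where the culture of experiment 1 was the deepest. A count of 0 allows up to 3 reads, which was 0.316 to 1.17 CPM over these libraries and covers counting error only. Shares of reads in the 10 most abundant genes, in ribosomal protein genes and in mitochondrial genes, the total and the number of genes at 1 CPM or more gave p-values of 0.3125 to 1 between the groups in exact two-sided sign-flip permutation tests over 5 pairs (smallest p possible 0.0625; adjusted over the 5 measures 0.938 to 1). Of 14 stellate and fibroblast markers, 11 averaged 1 CPM or more, with a summed level of 1800 to 3740 CPM in OLA+Veh and 2250 to 4410 CPM in Veh+Veh. The intermediate filament gene DES was at 0 in all 10. Of 10 hepatocyte markers, 0 reached that level and ALB, APOA2 and TTR were at 0 in all 10 libraries. The summed level of 7 adipocyte markers, which include FABP4, was 22.9 to 39.5 CPM in OLA+Veh and 19.5 to 74.7 CPM in Veh+Veh, with ADIPOQ at 0 in all 10. Summed levels were 198 to 649 CPM in OLA+Veh and 191 to 805 CPM in Veh+Veh for 9 epithelial markers, 2.48 to 7.23 CPM in OLA+Veh and 4.12 to 7.39 CPM in Veh+Veh for 8 endothelial markers, and 15.0 to 48.1 CPM in OLA+Veh and 11.5 to 50.5 CPM in Veh+Veh for 8 leukocyte markers.

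No gene passed the test for oleic acid. limma called 0 of 15137 genes (0.0%) between OLA+Veh and Veh+Veh at an adjusted p under 0.05, and the smallest adjusted p was 1. At an unadjusted p under 0.05 there were 468 genes, 3.09% of those tested. The same was found with edgeR, which called 0 genes (431 at an unadjusted p under 0.05), and with DESeq2, which called 0 (566). These fits held all 30 libraries. A limma fit of only the 10 libraries compared also called 0 genes. It gave 1228 of 15137 at an unadjusted p under 0.05, and its smallest adjusted p was 0.362. The median log2 difference over all genes was 0.02 (5th percentile -0.51, 95th percentile 0.50), with 52.2% of genes above 0. For 10692 genes (70.6%) the 95% interval lay wholly within 1 log2 unit on either side of 0. Among the 10389 genes that averaged 5 CPM or more in a group compared, that share was 79.3%. On the scale used, log2(CPM + 1), 1 unit is close to 2-fold in CPM for abundant genes and more than that for genes near 1 CPM. All values for oleic acid against vehicle below are therefore values that did not pass. In RNA from whole cultures, fewer cells of a kind and less RNA per cell cannot be told apart.

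Among the genes of fatty acid and sterol metabolism, the largest mean difference was that of ANGPTL4, which encodes a secreted inhibitor of lipoprotein lipase and is a PPAR target in many cell types. Its levels were 18.8, 15.6, 4.54, 20.3 and 16.8 CPM in OLA+Veh cultures of experiments 1 to 5, against 6.53, 1.37, 2.33, 13.5 and 7.70 CPM in Veh+Veh cultures. The OLA+Veh culture was the higher one in each of the 5 experiments, the groups overlapped because the OLA+Veh culture of experiment 3 lay below 3 of the Veh+Veh cultures, and the widest ratio was in experiment 2. The means were 15.2 ± 6.23 CPM in OLA+Veh and 6.28 ± 4.83 CPM in Veh+Veh (SD, n = 5 each), and the difference in log2(CPM + 1), the log2 difference of all sentences here, was 1.30 (adjusted p = 1 by limma; 95% interval 0.38 to 2.23). Over all genes, 4.59% were higher and 3.33% lower in OLA+Veh in 5 of 5 experiments. The experiments agreed little: across genes, Pearson correlations between the differences of 2 experiments ran from -0.0906 (experiments 2 and 4) to 0.255 (experiments 1 and 4). Over 27 settings, the main one included, the difference of ANGPTL4 ranged from 0.87 to 1.58 and its adjusted p from 0.452 to 1.

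Promoters of ANGPTL4 and of the desaturase gene SCD are shown because these genes are textbook readouts of fatty acid supply, stood on opposite sides of 0 and both differed between DHA and oleic acid. The windows run from 250 bases before to 50 after the start of each gene (RefSeq, GRCh38.p14), with CCAAT boxes, the sites of NF-Y, on either strand in capitals.
ANGPTL4, chr19:8363905-8364204, plus strand: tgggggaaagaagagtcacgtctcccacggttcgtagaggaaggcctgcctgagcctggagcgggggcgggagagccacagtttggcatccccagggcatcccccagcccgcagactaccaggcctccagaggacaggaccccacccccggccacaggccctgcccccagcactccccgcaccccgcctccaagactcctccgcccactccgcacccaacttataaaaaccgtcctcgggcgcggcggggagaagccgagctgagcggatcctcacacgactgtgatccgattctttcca
SCD, chr10:100346983-100347282, plus strand: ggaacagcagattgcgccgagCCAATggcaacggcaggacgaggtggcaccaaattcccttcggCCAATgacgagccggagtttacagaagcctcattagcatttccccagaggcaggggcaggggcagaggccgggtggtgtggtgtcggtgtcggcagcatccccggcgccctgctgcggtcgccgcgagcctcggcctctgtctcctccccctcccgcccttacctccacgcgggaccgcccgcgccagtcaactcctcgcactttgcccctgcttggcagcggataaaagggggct
The SCD window holds 2 CCAAT boxes, which begin 229 and 186 bases before the start, and the ANGPTL4 window holds 0. Of 35116 promoter windows of this length, 34.6% hold at least 1. The nuclear receptor motif AGGTCA, searched on both strands, is in neither window and in 13.8% of all windows. A direct repeat of 2 such motifs with 1 base between, the form that PPARs bind, is in neither window and in 0.0228% of all. These matches describe the letters of the windows only.

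The PPAR targets PLIN2 and CPT1A stood near 0. PLIN2, the coat protein of lipid droplets, had 141, 175, 76.8, 143 and 143 CPM in OLA+Veh cultures of experiments 1 to 5, against 105, 92.8, 128, 131 and 162 CPM in Veh+Veh cultures. Its OLA+Veh culture was the higher one in experiments 1, 2 and 4 and the lower one in experiments 3 and 5, and the log2 difference was 0.11 (95% interval -0.46 to 0.68). CPT1A, the carnitine palmitoyltransferase that admits fatty acids to mitochondria, had 317, 442, 162, 236 and 323 CPM in OLA+Veh and 269, 300.5, 168, 213 and 433 CPM in Veh+Veh. Here too the sign differed between experiments, with 3 of 5 higher in OLA+Veh, and the log2 difference was 0.09 (95% interval -0.33 to 0.52). The signs of both genes also turned with some libraries left out, from -0.09 to 0.34 for PLIN2 and from -0.02 to 0.22 for CPT1A over all settings. PDK4, the pyruvate dehydrogenase kinase that responds to fatty acids in muscle and liver, was below the level for testing, at no more than 0.589 CPM in any OLA+Veh library and 0.389 CPM in any Veh+Veh library.

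Across the list of fatty acid oxidation and PPAR targets, 0 of 38 tested members (of 43) were called, 23 were higher in OLA+Veh and 15 lower, and the median log2 difference was 0.11, against 0.02 over all tested genes. In each single experiment the median of the list lay between 0.02 and 0.08. Medians over all tested genes were -0.01, 0.05, 0, -0.01 and 0.07 in experiments 1 to 5, and the list lay below all genes in experiment 5. By role, 4 of 5 genes of mitochondrial fatty acid import were above 0, among them CPT2 (0.32), whereas 7 of 15 genes of mitochondrial β-oxidation were. The medium-chain acyl-CoA dehydrogenase ACADM (-0.47) and the thiolase ACAA2 (-0.30) stood at the low end, and the very long-chain dehydrogenase ACADVL (0.25) and ETFDH, which passes electrons from these enzymes to ubiquinone (0.46), at the high end. Of 10 peroxisomal genes 7 were above 0. The uncoupling protein gene UCP2 was higher in OLA+Veh in 5 of 5 experiments by a log2 difference of 0.19 (95% interval -0.34 to 0.73).

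**Figure D1:**
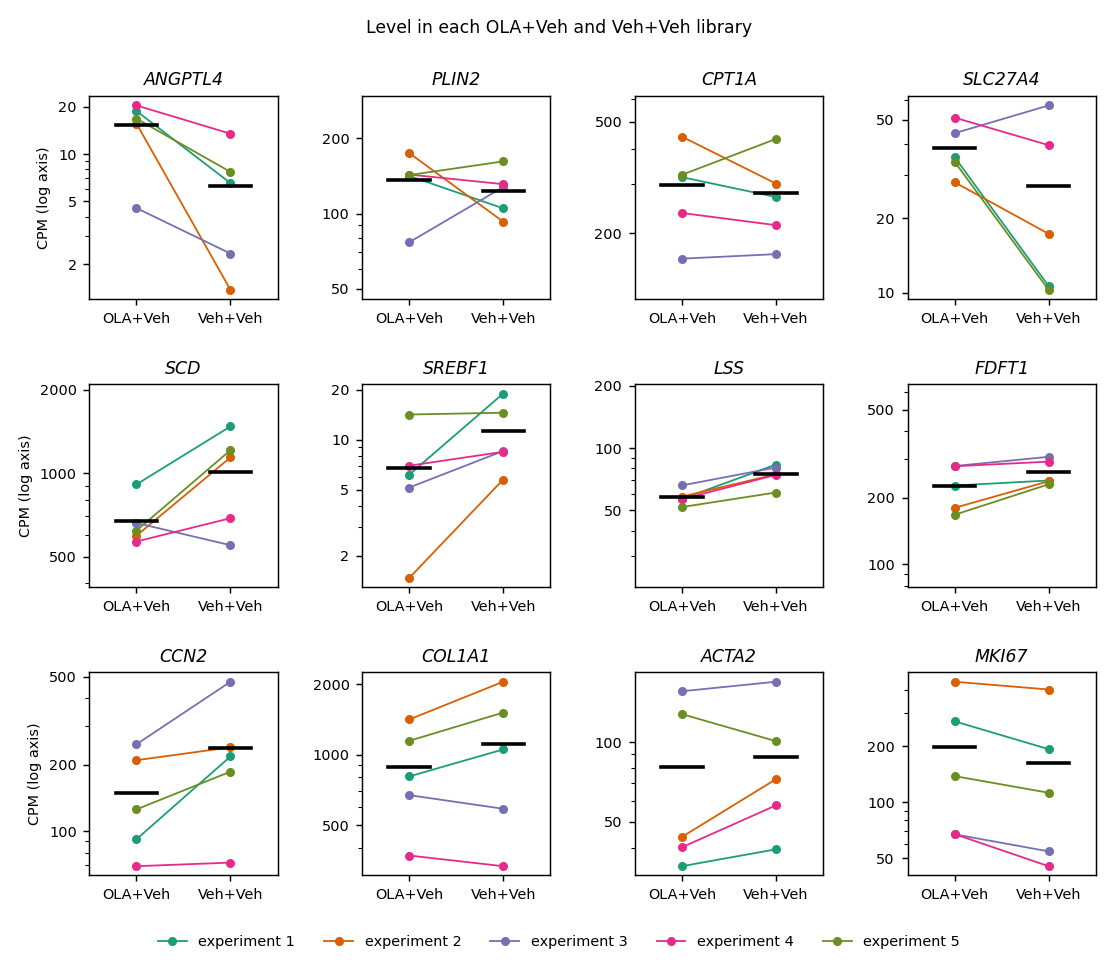
Level of 12 genes in CPM (log axis) in OLA+Veh and Veh+Veh libraries. Each line joins the cultures of 1 experiment and the black bars are group means (n = 5 each); ANGPTL4 and MKI67 are higher in OLA+Veh in all 5 experiments, SREBF1, LSS, FDFT1 and CCN2 are lower in all 5, and none of the 12 passed the test.

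Among genes of fatty acid uptake, binding and activation, SLC27A4, which encodes a fatty acid transport protein with acyl-CoA synthetase activity, had the smallest p. It was at 35.4, 28.0, 44.2, 51.1 and 33.9 CPM in OLA+Veh cultures of experiments 1 to 5, against 10.6, 17.3, 57.2, 39.5 and 10.3 CPM in Veh+Veh cultures. The OLA+Veh levels lay close together while Veh+Veh ranged widely, and only experiment 3 was lower in OLA+Veh (log2 difference 0.79, 95% interval 0.10 to 1.47; adjusted p = 1 by limma). With BTC the same gene stood the other way, at -0.84 on the log2 scale between OLA+BTC and Veh+BTC (95% interval -1.52 to -0.15; adjusted p = 0.695). The scavenger receptor and fatty acid translocase CD36 was at 4.82, 3.24, 1.65, 3.19 and 2.58 CPM in OLA+Veh and 2.53, 0.824, 18.3, 3.91 and 2.28 CPM in Veh+Veh. The fatty acid-binding protein FABP4 was at 15.8, 16.8, 5.78, 12.4 and 8.06 CPM in OLA+Veh and 5.90, 7.96, 41.6, 11.5 and 5.42 CPM in Veh+Veh. For both, the Veh+Veh culture of experiment 3 was far above every other, as it was for FABP5 (9.73 CPM, against 2.60 CPM or less in the other Veh+Veh cultures). Without that library the log2 difference of FABP4 was 0.61 and that of CD36 0.36, against 0.04 and -0.21 with it, and neither was called.

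In the whole list of receptors, uptake and binding, 0 of 21 tested members (of 35) were called and 13 were above 0 (median log2 difference 0.01). PPARA was at 0.02 (95% interval -0.53 to 0.57), PPARD at -0.46 (-1.53 to 0.60) and their partner RXRA at -0.03 (-0.38 to 0.32). PPARG and the surface receptors of long-chain fatty acids FFAR1 and FFAR4 did not reach the level for testing, and no library of either group held more than 0.968 CPM of any of them. The acyl-CoA synthetases ACSL1 and ACSL4 stood at -0.50 and -0.39. DBI, the acyl-CoA-binding protein, was among the most abundant members, at 784 ± 98.9 CPM in OLA+Veh and 705 ± 99.5 CPM in Veh+Veh (SD, n = 5 each; log2 difference 0.16, 95% interval -0.34 to 0.65).

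Lipid droplet and triglyceride genes showed 0 calls among 26 tested (of 34), with 15 above 0 and a median log2 difference of 0.04. Beside PLIN2, the droplet coat protein PLIN3 was at 944 ± 410.3 CPM in OLA+Veh and 889 ± 313 CPM in Veh+Veh (log2 difference 0.05, 95% interval -0.32 to 0.42). HILPDA, an inhibitor of the triglyceride lipase PNPLA2, had 141, 170.3, 241, 203 and 143 CPM in OLA+Veh cultures of experiments 1 to 5, against 150.0, 167, 253, 217 and 159 CPM in Veh+Veh cultures. The groups ran nearly in parallel over the experiments, with a log2 difference of -0.07 (95% interval -0.50 to 0.35). PNPLA2 itself stood at 0.08, the monoglyceride lipase MGLL at 0.33, and the enzymes of the last step of triglyceride synthesis, DGAT1 and DGAT2, at 0.06 and 0.03. G0S2, another PNPLA2 inhibitor, varied between experiments from 4.54 to 80.9 CPM in OLA+Veh and from 3.57 to 102 CPM in Veh+Veh, and its interval of -1.91 to 0.82 was the widest of the genes named here for droplets. Of this list, 24 members had intervals wholly within 1 log2 unit on either side of 0.

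**Figure D2:**
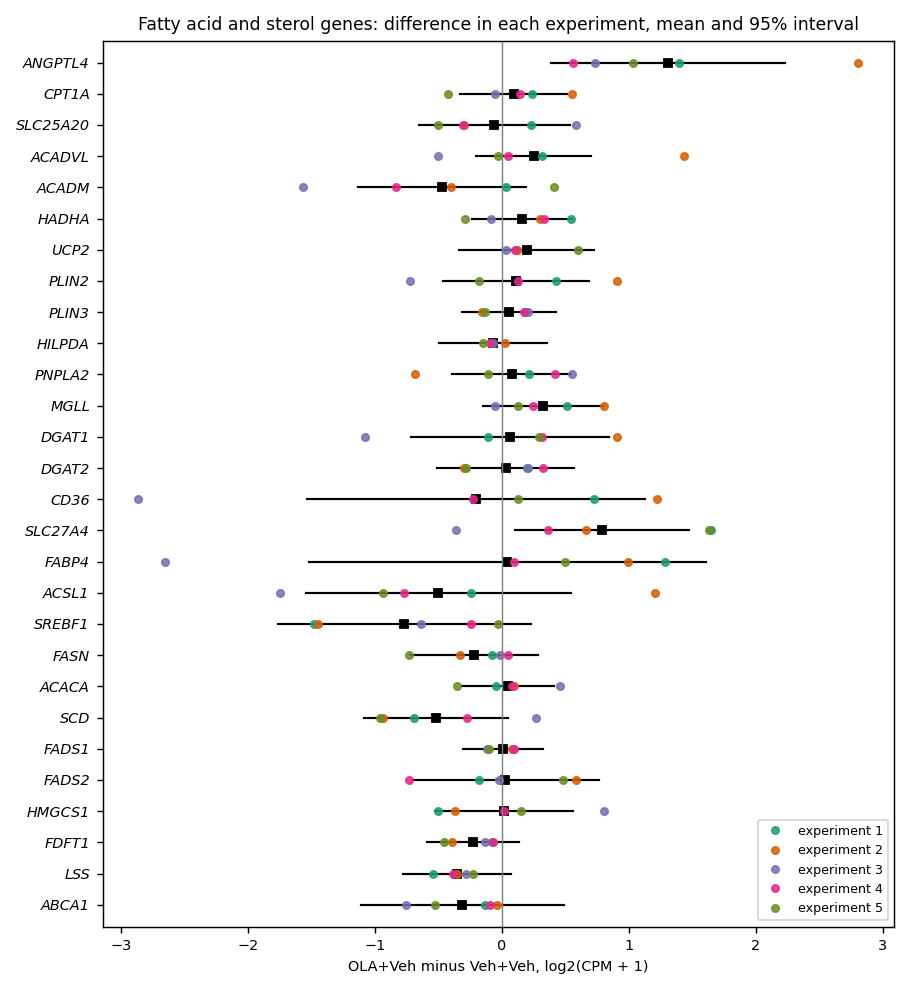
Difference between OLA+Veh and Veh+Veh in log2(CPM + 1) for 28 genes of fatty acid and sterol metabolism. Coloured points are the 5 experiments, black squares the mean and black lines its 95% interval from limma; the intervals of ANGPTL4 and SLC27A4 lie above 0 and those of the other 26 genes include 0.

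SCD, which makes oleic acid from stearic acid, was at 911, 595, 661, 567 and 620.2 CPM in OLA+Veh cultures of experiments 1 to 5, against 1475, 1140.3, 549, 688 and 1211 CPM in Veh+Veh cultures. The OLA+Veh culture was the lower one in 4 of 5 experiments and the higher one in experiment 3, and the groups overlapped. The log2 difference was -0.52 (95% interval -1.09 to 0.05; adjusted p = 1 by limma), and it ranged from -0.72 to -0.26 over all settings. SREBF1, which encodes SREBP1, was at 6.16, 1.47, 5.16, 6.98 and 14.2 CPM in OLA+Veh and 19.0, 5.77, 8.56, 8.47 and 14.5 CPM in Veh+Veh. It was lower in OLA+Veh in 5 of 5 experiments, by little in experiment 5 (log2 difference -0.77, 95% interval -1.77 to 0.23; adjusted p = 1 by limma). ACLY, which supplies acetyl-CoA for synthesis, was also lower in 5 of 5 experiments, at 335 ± 44.4 CPM in OLA+Veh and 399 ± 70.8 CPM in Veh+Veh (log2 difference -0.24, 95% interval -0.55 to 0.07).

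Signs were mixed over the rest of the pathway. The acetyl-CoA carboxylase ACACA stood at 0.05, the Δ5 and Δ6 desaturases FADS1 and FADS2 at 0.01 and 0.02, and the elongases ELOVL1, ELOVL2 and ELOVL6 at 0.24, 0.32 and 0.50, while the synthase FASN stood at -0.22, the elongase ELOVL7 at -0.61 and the mitochondrial citrate carrier SLC25A1 at -0.37. Of 24 tested genes of fatty acid synthesis and desaturation (of 25), 0 were called, 12 were above 0 and 12 below (median log2 difference -0.02). By role, 1 of 4 genes of SREBP1 control and 5 of 7 elongases were above 0. For FADS1 the 95% interval ran from -0.31 to 0.33.

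Cholesterol synthesis and uptake genes lay mostly below 0. Of 28 tested members (of 30), 0 were called, 5 were above 0 and 23 below, and the median log2 difference was -0.11. The medians within single experiments did not share a sign: they were -0.22 and -0.38 in experiments 1 and 2, 0.14 and 0.05 in experiments 3 and 4, and -0.03 in experiment 5. Lanosterol synthase (LSS) was at 56.8, 58.3, 66.0, 56.7 and 51.9 CPM in OLA+Veh cultures of experiments 1 to 5, against 83.2, 74.7, 80.6, 74.2 and 61.0 CPM in Veh+Veh cultures. It was lower in OLA+Veh in 5 of 5 experiments and only the lowest Veh+Veh culture lay within the OLA+Veh range (log2 difference -0.36, 95% interval -0.78 to 0.07; adjusted p = 1 by limma). Squalene synthase (FDFT1) was lower in 5 of 5 experiments too, at 226 ± 52.2 CPM in OLA+Veh and 261 ± 35.1 CPM in Veh+Veh (log2 difference -0.23, 95% interval -0.59 to 0.14).

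The sterol reductase gene HSD17B7 had the smallest p of the list (log2 difference -0.83, 95% interval -1.64 to -0.01; adjusted p = 1 by limma) at a mean of 1.10 CPM in OLA+Veh and 3.04 CPM in Veh+Veh, close to the floor. HMG-CoA synthase (HMGCS1) was at 1019, 1262, 549, 298 and 402 CPM in OLA+Veh and 1449, 1634, 314, 295 and 363 CPM in Veh+Veh. Experiments 1 and 2 stood well above the other 3 in both groups, and the log2 difference was 0.02 (95% interval -0.53 to 0.56). The SREBP2 gene SREBF2 stood at -0.08 (95% interval -0.65 to 0.49). Of 11 LXR targets and sterol efflux genes, 0 were called and 4 were above 0 (median log2 difference -0.00153), with the cholesterol exporter ABCA1 lower in 5 of 5 experiments at -0.31 (-1.11 to 0.49). SCARB1, the receptor of high-density lipoprotein, was at 32.4, 17.7, 22.1, 37.7 and 39.0 CPM in OLA+Veh and 39.4, 37.6, 38.1, 41.2 and 68.7 CPM in Veh+Veh. It was lower in all 5 experiments, with overlap, and did not pass (log2 difference -0.60, 95% interval -1.05 to -0.15; adjusted p = 1 by limma).

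Fibrosis genes did not pass the test either. COL1A1, the main chain of type I collagen, was at 807, 1415, 671, 370.5 and 1146 CPM in OLA+Veh cultures of experiments 1 to 5, against 1053, 2052, 587, 333 and 1515 CPM in Veh+Veh cultures. Levels followed the experiment more than the treatment, with experiments 3 and 4 at the low end of both groups, and the log2 difference was -0.20 (95% interval -0.66 to 0.26). COL1A2 and COL3A1 stood at -0.34 (-1.20 to 0.52) and -0.24 (-0.79 to 0.31). ACTA2, the smooth muscle actin that marks activated stellate cells, was at 34.0, 43.9, 156, 40.1 and 128 CPM in OLA+Veh and 39.4, 72.5, 169, 57.7 and 101 CPM in Veh+Veh. The OLA+Veh culture was the lower one in 4 of 5 experiments (log2 difference -0.24, 95% interval -0.92 to 0.43).

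Of 41 tested collagen and matrix genes (of 43), 0 were called and 14 were above 0 (median log2 difference -0.07), and of 19 stellate activation and contractile genes (of 20), 0 were called and 8 were above 0 (-0.09). The matrix glycoprotein SPARC was lower in OLA+Veh in 5 of 5 experiments (-0.35, 95% interval -0.84 to 0.14), and the fibroblast activation protein FAP was higher in 5 of 5 (0.76, 0.05 to 1.47) at a mean of 3.69 CPM in OLA+Veh and 1.57 CPM in Veh+Veh. Among the 12 tested stellate and fibroblast markers only THY1 was above 0, the median log2 difference was -0.24, and the medians within experiments ran from -0.53 to -0.04. In the same contrast with BTC, 10 of these 12 were above 0. Quiescence and retinoid genes had 6 of 12 tested members (of 21) above 0 and 0 called.

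CCN2, a matricellular protein that TGF-β and YAP induce, was at 91.9, 209, 247, 69.4 and 125 CPM in OLA+Veh cultures of experiments 1 to 5, against 218, 239, 474, 72.1 and 186 CPM in Veh+Veh cultures. The OLA+Veh culture was the lower one in all 5 experiments, most in experiments 1 and 3 and least in experiment 4, with overlap between the groups. The log2 difference was -0.60 (95% interval -1.14 to -0.05; adjusted p = 1 by limma), and with BTC it was 0.01 (-0.54 to 0.56). The ligand TGFB1 stood at -0.40 (-1.08 to 0.28). TGFB2 was higher in OLA+Veh in 5 of 5 experiments (0.69, -0.04 to 1.42) and lower in OLA+BTC than in Veh+BTC in 5 of 5 (-0.93, -1.66 to -0.20), neither of them called. Of 23 tested TGF-β ligands and targets (of 24), 12 were above 0 (median log2 difference 0.01) and 0 were called. Among 18 tested matrix proteases and inhibitors (of 21), 8 were above 0 and 0 called, with the collagenase MMP1 at 0.23 (-0.56 to 1.02) and TIMP1 at -0.20 (-0.66 to 0.25).

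**Figure D3:**
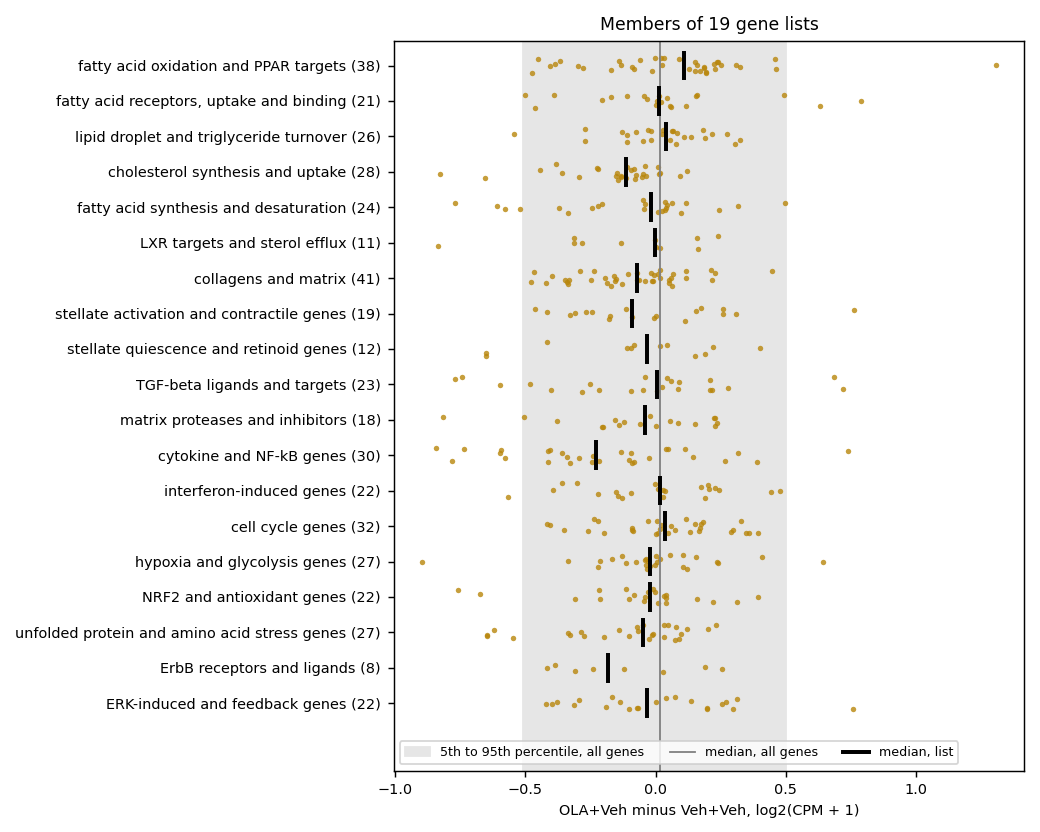
Difference between OLA+Veh and Veh+Veh in log2(CPM + 1) for the tested members of 19 gene lists, with the number of tested members in brackets. Points are genes, black bars list medians, the grey band runs from the 5th to the 95th percentile of all tested genes (-0.51 to 0.50); list medians run from -0.23 for cytokine and NF-kB genes to 0.11 for fatty acid oxidation and PPAR targets, and the point at 1.30 is ANGPTL4.

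Cytokine and NF-κB genes had the lowest list median, -0.23, with 8 of 30 tested members (of 32) above 0 and 0 called. Medians within experiments were 0.07, 0, -0.33, -0.33 and -0.18, and the list median was -0.04 without OLA+Veh of experiment 5. The macrophage growth factor CSF1 stood at -0.84 (95% interval -1.84 to 0.16) and the chemokine CXCL8 at -0.34 (-1.66 to 0.97). NFKB2, which encodes the NF-κB subunit p100, was at 9.11, 7.95, 7.84, 11.8 and 11.9 CPM in OLA+Veh and 6.85, 3.02, 6.62, 8.03 and 3.71 CPM in Veh+Veh. It was higher in OLA+Veh in 5 of 5 experiments, with a small overlap (log2 difference 0.74, 0.10 to 1.37; adjusted p = 1 by limma), and stood at -0.52 with BTC. Of 22 interferon-induced genes, 12 were above 0 and 0 called.

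Cell cycle genes had 21 of 32 members above 0 (median log2 difference 0.03) and 0 called. The list medians within experiments 1 to 5 did not share a sign, at -0.10, -0.03, 0.0004, 0.06 and -0.01. The proliferation marker MKI67 was at 271, 443, 67.3, 67.4 and 138 CPM in OLA+Veh cultures of experiments 1 to 5, against 193, 402, 54.5, 45.4 and 112 CPM in Veh+Veh cultures. The OLA+Veh culture was the higher one in every experiment, by much less than experiments 1 and 2 differed from 3 and 4 (log2 difference 0.36, 95% interval -0.09 to 0.81). The kinetochore gene CENPF was higher in 5 of 5 as well (0.30, -0.12 to 0.71), and the thymidylate synthase TYMS lower in 5 of 5 (-0.26, -0.58 to 0.06).

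Stress and signalling lists gave 0 calls as well. Unfolded protein and amino acid stress genes had 10 of 27 tested members (of 29) above 0, NRF2 and antioxidant genes 9 of 22 (of 23), hypoxia and glycolysis genes 12 of 27 (of 30), ErbB receptors and ligands 3 of 8 (of 13) and ERK-induced genes 11 of 22 (of 23). GDF15, a stress-induced secreted factor, was at 42.6, 6.77, 7.22, 47.5 and 42.6 CPM in OLA+Veh and 51.2, 11.8, 23.3, 61.0 and 49.1 CPM in Veh+Veh. It was lower in OLA+Veh in all 5 experiments, by the largest ratios in experiments 2 and 3 (log2 difference -0.62, 95% interval -1.22 to -0.03; adjusted p = 1 by limma). The heme oxygenase HMOX1 was higher in 5 of 5 (0.31, -0.21 to 0.83), the quinone reductase NQO1 stood at -0.31 (-0.64 to 0.02), the glucose transporter SLC2A1 at -0.33 (-0.83 to 0.16), and EGFR, a receptor of betacellulin, at -0.24 (-0.76 to 0.28).

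Over all genes, the 12 with the smallest p-values in each direction were taken, SCARB1 among them, from those with a mean of 5 CPM or more and 1 sign in 5 of 5 experiments. The smallest p belonged to EIF3A, the largest subunit of a translation initiation factor, at 83.3, 144, 37.6, 27.5 and 31.0 CPM in OLA+Veh cultures of experiments 1 to 5, against 65.0, 78.3, 17.1, 13.7 and 8.56 CPM in Veh+Veh cultures. Every experiment was higher in OLA+Veh, although the groups overlapped because experiments 1 and 2 ran far above the rest (log2 difference 1.00, 95% interval 0.49 to 1.51; adjusted p = 1 by limma). Next on the higher side were DCLRE1C, a nuclease of DNA end joining (0.81), MRPL2, a protein of the mitochondrial ribosome (0.81), and DHTKD1, a mitochondrial enzyme of lysine breakdown (0.82). On the lower side the first was SSC5D, a secreted scavenger receptor, at 4.02, 4.42, 4.75, 2.39 and 0.323 CPM in OLA+Veh and 11.9, 8.24, 14.8, 6.51 and 2.85 CPM in Veh+Veh. Its groups overlapped only through the low Veh+Veh culture of experiment 5 (log2 difference -1.26, -2.05 to -0.46; adjusted p = 1 by limma). It was followed by the netrin receptor neogenin, NEO1 (-0.56), HMCES, which shields abasic sites in DNA (-0.62), MRGPRF (-0.68) and the glutaredoxin GLRX (-0.99).

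The libraries with BTC held the same fatty acid contrast again. They entered the comparison without BTC only through the shared spread and the experiment terms of the fit, and so also its p-values. Of those 12 higher genes, 11 had the opposite sign between OLA+BTC and Veh+BTC (median log2 difference 0.82 without and -0.31 with BTC), and so had 11 of the 12 lower genes (-0.65 without and 0.20 with BTC). The share of all tested genes with opposite signs was not counted, so these counts are not shown to be particular to these genes. EIF3A stood at -0.47 with BTC (95% interval -0.98 to 0.04), DHTKD1 at -0.56 (-1.06 to -0.06) and HMCES at 0.53 (0.10 to 0.95). Across the 15137 genes, the differences without and with BTC had a Pearson correlation of -0.318 and a Spearman correlation of -0.304, a description over genes that share libraries and are not independent. Within single experiments Pearson's r was -0.315, 0.03, -0.115, -0.08 and -0.09 in experiments 1 to 5, so it was largest in experiment 1. Among the 10080 genes with a mean of 5 CPM or more over the 30 libraries, Pearson's r of the mean differences was -0.444. limma called 0 genes (0.0%) for OLA+BTC against Veh+BTC (1044 at an unadjusted p under 0.05, 6.9%; edgeR 0 and 1040, DESeq2 0 and 1302). It also called 0 (0.0%) for the difference between the contrasts with and without BTC (1279 at an unadjusted p under 0.05, 8.45%; edgeR 0 and 1269, DESeq2 1 and 1534). With a library or an experiment left out, limma still called 0 for both. Genes at an unadjusted p under 0.05 then ran from 444 (without Veh+BTC of experiment 5) to 2158 (without Veh+BTC of experiment 2) for OLA+BTC against Veh+BTC. For the difference between the contrasts they ran from 518 (without experiment 3) to 2104 (without Veh+BTC of experiment 2). Whether any gene here answers oleic acid differently with BTC is thus not shown by limma or edgeR. The 1 gene DESeq2 called, VTRNA1-1, a vault RNA named after its values were seen, averaged 0 CPM in OLA+BTC, 0.965 CPM in Veh+BTC, 2.35 CPM in OLA+Veh and 0.403 CPM in Veh+Veh (adjusted p = 0.00942 by DESeq2), values near the floor of 3 reads.

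**Figure D4:**
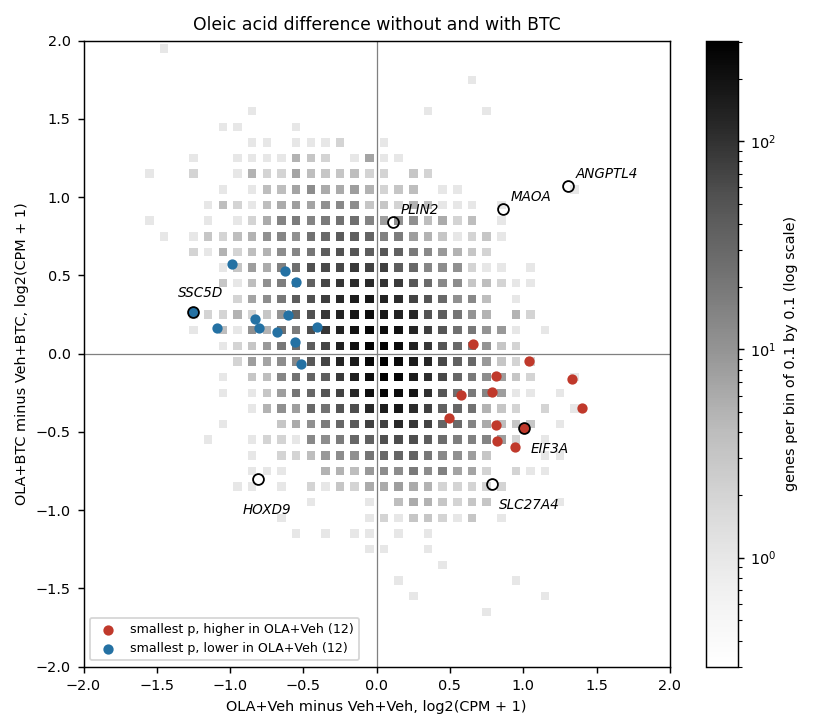
Oleic acid difference without BTC (x axis, OLA+Veh minus Veh+Veh) and with BTC (y axis, OLA+BTC minus Veh+BTC), both in log2(CPM + 1), for 15137 genes in bins shaded by the number of genes. Red and blue points are the 12 genes with the smallest p in each direction without BTC and circled genes are named; most red points lie below 0 on the y axis and most blue points above it, while ANGPTL4 and MAOA lie at the upper right.

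ANGPTL4 kept its sign. With BTC it averaged 17.4 ± 9.92 CPM in OLA+BTC and 8.96 ± 6.55 CPM in Veh+BTC (SD, n = 5 each), with 1.07 on the log2 scale (adjusted p = 0.695 by limma; 95% interval 0.15 to 1.99), again higher in 5 of 5 experiments. In all, 14 genes were higher with oleic acid in each of these 10 pairs of cultures (0.0925% of those tested) and 13 were lower in each (0.0859%). Random signs over 10 pairs would give sets of about this size, so membership alone does not show a response to oleic acid. ANGPTL4 had the largest mean difference of the 14. Second came MAOA, the monoamine oxidase A, named after its values were seen. MAOA had 8, 5, 4, 7 and 2 reads in OLA+Veh, against 4, 2, 0, 0 and 1 reads in Veh+Veh, and 16, 14, 7, 2 and 5 reads in OLA+BTC, against 6, 1, 1, 1 and 2 reads in Veh+BTC. These are few reads, and in CPM all OLA+Veh cultures stood above all Veh+Veh cultures, as they did for 16 genes (0.106%), while 14 genes lay wholly below (0.0925%). On the lower side the largest mean difference was that of HOXD9, a homeobox factor, also named after its values were seen. HOXD9 had 5, 5, 3, 1 and 2 reads in OLA+Veh, against 27, 23, 6, 1 and 6 reads in Veh+Veh. With BTC it had 16, 6, 5, 5 and 3 reads in OLA+BTC, against 19, 47, 4, 8 and 14 reads in Veh+BTC. In experiment 4 without BTC and experiment 3 with BTC, HOXD9 was thus lower in CPM only through the library totals. PLIN2, near 0 without BTC, was higher in OLA+BTC than in Veh+BTC in 5 of 5 experiments (0.84, 0.27 to 1.41; adjusted p = 0.695), and the test of the difference between these contrasts gave an adjusted p of 0.597.

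Where the fatty acids differ was tested directly, at the same 50 µM and without BTC. DHA+Veh and OLA+Veh, which differ in chain length and in the number of double bonds, gave 495 calls by limma, 135 genes higher (0.892%) and 360 lower (2.38%) in DHA+Veh. The DHA+Veh library of experiment 5 held 1538581 reads, fewer than any OLA+Veh or Veh+Veh library, and 3 reads there were 1.95 CPM. The split moved with the scaling, to 164 higher and 274 lower with median-of-ratios factors and 178 and 210 after quantile normalization, where the median of all genes was -0.15 with the library total, -0.09 and -0.01. The count was 292, 213 and 157 without OLA+Veh of experiments 3, 4 and 5, 290 and 158 without DHA+Veh of experiments 4 and 5, and 136, 129 and 129 without experiments 3, 4 and 5. It was 2 without the experiment in the fit, 210 with only the groups compared, 256 with no filter and 311 by edgeR, with 146 higher and 165 lower. It was above 495 by DESeq2, with 674 (254 higher and 420 lower), with 557 when every one of the 10 OLA+Veh and Veh+Veh libraries had to reach 1 CPM, and with 616 without Veh+BTC of experiment 1, a library that enters only the shared spread and the experiment terms. Since this comparison and that of oleic acid with vehicle share the OLA+Veh libraries, values are given side by side and no overlap is read.

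ANGPTL4 averaged 214 ± 171 CPM in DHA+Veh and 15.2 ± 6.23 CPM in OLA+Veh; the log2 difference was 3.60 (adjusted p = 4.6e-05; 95% interval 2.68 to 4.52), beside 1.30 for oleic acid over vehicle. PLIN2 averaged 364 ± 188 CPM in DHA+Veh and 136 ± 35.8 CPM in OLA+Veh (1.29, adjusted p = 0.00912), and SCD 337 ± 178 CPM in DHA+Veh and 671 ± 139 CPM in OLA+Veh (-1.14, adjusted p = 0.0201). In the cholesterol list 5 of 28 genes were called lower with DHA than with oleic acid, among them HMGCS1 by a log2 difference of -1.33 (adjusted p = 0.00482) and the mevalonate kinase MVK by -1.15 (0.0193), both near 0 for oleic acid against vehicle. FDPS, the farnesyl diphosphate synthase, stood near 0 there too and was not called between the fatty acids (-0.47, 0.415). Higher with DHA than with oleic acid were MMP1 (2.71, adjusted p = 0.000146), CXCL8 (3.99, 0.000559) and GDF15 (2.48, 2.2e-05), and lower were the receptor tyrosine kinase KIT (-2.37, 0.00283) and MKI67 (-1.22, 0.00237).

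For other genes no difference between the fatty acids was called. CPT1A differed by 0.55 between DHA+Veh and OLA+Veh (95% interval 0.12 to 0.97; adjusted p = 0.139), LSS by -0.19 (-0.62 to 0.24; 0.687) and FADS1 by -0.31 (-0.62 to 0.01; 0.295), which does not show that they act alike. Against 0.892% called higher and 2.38% called lower over all genes, the lists held the following calls in DHA+Veh relative to OLA+Veh. Cytokine and NF-κB genes had 10 higher and 1 lower of 30, hypoxia and glycolysis genes 8 and 0 of 27, matrix proteases and inhibitors 5 and 0 of 18, NRF2 and antioxidant genes 5 and 0 of 22, and unfolded protein and amino acid stress genes 3 and 0 of 27. Stellate activation and contractile genes had 0 higher and 6 lower of 19, cell cycle genes 0 and 7 of 32, cholesterol genes 0 and 5 of 28, and fatty acid synthesis genes 0 and 4 of 24. Collagens had 0 and 2 of 41, TGF-β genes 0 and 2 of 23, uptake genes 0 and 2 of 21, quiescence genes 0 and 1 of 12, droplet genes 2 and 1 of 26, ERK-induced genes 2 and 0 of 22, interferon-induced genes 1 and 0 of 22, and LXR targets and ErbB genes no call. Oxidation and PPAR target genes had 1 and 1 of 38, the higher gene being ANGPTL4 and the lower UCP2 (-1.40, adjusted p = 0.00303).

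**Figure D5:**
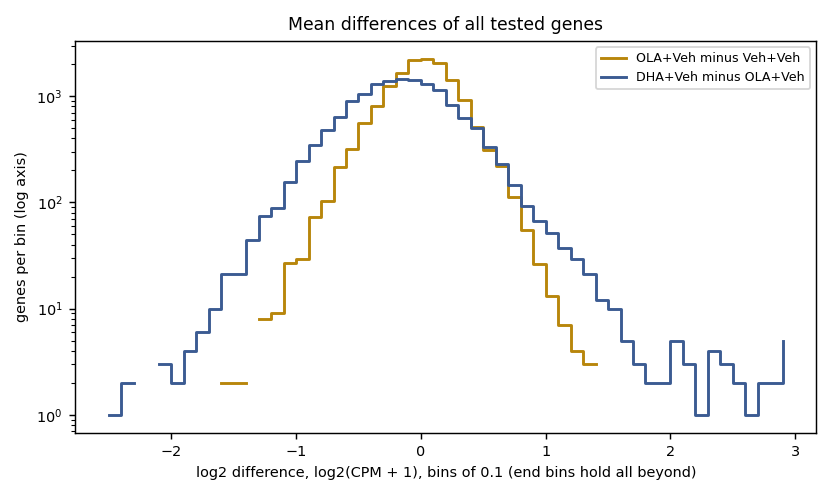
Number of genes (log axis) by mean difference in log2(CPM + 1), in bins of 0.1, for DHA+Veh minus OLA+Veh and for OLA+Veh minus Veh+Veh. Between OLA+Veh and Veh+Veh, 27 genes lie above 1 and 48 below -1, against 200 and 430 between DHA+Veh and OLA+Veh, and both comparisons share the OLA+Veh libraries.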

How the data were processed

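LX2 cells were profiled by 3′ tag RNA sequencing in 30 libraries, 1 per culture, in 6 groups of 5 experiments. Per the submitters' processing notes, STAR 2.5.3a and HTSeq 0.6.0 were used. Build, annotation and strand setting: not given in the sources used here. Overlapping and near-identical genes may share reads, or such reads may have been left uncounted. A gene near 0 CPM is therefore not shown to be silent. The authors deposited CPM values, in which every library sums to 1000000. All values were whole multiples of 1 read (100% whole, tolerance 0.01 reads), and whole reads were recovered from them.

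Genes that reached 1 CPM in 5 libraries or more were tested (15137 genes, 13901 with a symbol). limma 3.58.1 (R 4.3.3) with a mean-dependent prior was fitted to log2(CPM + 1) of all 30 libraries, with group and experiment as terms, two-sided, with Benjamini-Hochberg adjustment and calls at an adjusted p under 0.05. The pseudocount of 1 understates differences of low genes. The titles number the experiments. Deviations from the group means correlated at 0.304 to 0.743 between OLA+Veh and the Veh+Veh culture of the same experiment, and at 0.119 or more over all 75 same-experiment pairs, so the experiment was kept as a block. Read totals set the floor of 3 reads and cover counting error only.

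Alternatives were other pseudocounts, filters and scalings, thinning to 2569815 reads, a fit of only the groups compared, a fit with no block, leaving out each library or experiment, and edgeR 4.0.16 and DESeq2 1.42.0 on the recovered reads. Scripts were tested on simulated data. Members and gene lists were chosen with earlier results of these data known. Named genes were those fixed by name, up to 4 per list by smallest p with every tested member of the lipid lists, and, since no gene was called, the 12 smallest p-values in each direction with a mean of 5 CPM or more and 1 sign in 5 of 5 experiments. Of 547 different genes on 25 lists, 465 were tested, and some of them are not reported here by name.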

Additional observations from a re-analysis of the deposited data

Results flagged for a closer look

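The 114 genes chosen for the text and 5 measures of the libraries were examined in each group, 238 sets of 5 libraries in all, and 10 held a library whose gap to its nearest neighbour was over 0.71 of the whole range; chance flags about 1 in 20 such sets. Of these 10, 2 were in OLA+Veh and 8 in Veh+Veh. In OLA+Veh of experiment 1, SCD was at 911 CPM (next 661 CPM) and ABCA1 at 16.6 CPM (next 5.30 CPM).

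In Veh+Veh of experiment 3, 4 genes of lipid handling stood apart: CD36 at 18.3 CPM (next 3.91 CPM), FABP4 at 41.6 CPM (next 11.5 CPM), FABP5 at 9.73 CPM (next 2.60 CPM) and the lipase MGLL at 63.0 CPM (next 42.5 CPM). That library was also the shallowest of the 10, with 2569815 reads, where 3 reads were 1.17 CPM. The part of depth in these values was not tested. Outside these 10 libraries, FABP4 averaged 58.4 ± 110.1 CPM in OLA+BTC and 9.19 ± 4.0 CPM in Veh+BTC (SD, n = 5 each). CD36 averaged 15.8 ± 27.3 CPM in OLA+BTC and 4.73 ± 2.15 CPM in Veh+BTC. In Veh+Veh of experiment 5, FASN was at 571 CPM (next 414 CPM) and SCARB1 at 68.7 CPM (next 41.2 CPM). In Veh+Veh of experiment 4, ELOVL1 was at 206 CPM (next 133 CPM), and in Veh+Veh of experiment 1, ABCA1 was at 18.3 CPM (next 7.41 CPM). Other list genes were not in this count. Among them, FABP6 was at 46.9 CPM in OLA+Veh of experiment 4 (next 4.71 CPM), and FABP1 at 5.45 CPM in Veh+Veh of experiment 3 (next 1.14 CPM).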

How the results depend on the processing

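limma, edgeR and DESeq2 called 0 genes between OLA+Veh and Veh+Veh under all settings run. Settings that kept every OLA+Veh and Veh+Veh library gave 123 (no replicate block) to 1228 (only the groups compared) genes at an unadjusted p under 0.05. For the interaction with BTC, DESeq2 called 1 gene. For DHA+Veh against OLA+Veh, 495 genes were called, against 256 with no filter, 210 with only the groups compared, 311 by edgeR and 129 to 512 with an OLA+Veh or DHA+Veh library or an experiment left out (616 without Veh+BTC of experiment 1, 674 by DESeq2). Without the experiment as a block, 2 were called. The oleic acid contrasts and the interaction stayed at 0 calls without the block. With 0 calls between OLA+Veh and Veh+Veh in every setting, the 2947 values for 114 genes could only stay on the same side of the threshold. Of these values, 130 changed sign where the 95% interval held 0. Of 420 list medians, 404 moved by less than 1 SD over experiments. The others included 12 for oxidation genes (0.02 to 0.15). Depth limits genes near the floor, such as MAOA and HOXD9.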

Other observations

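Beside ANGPTL4 and MAOA, the genes higher with oleic acid in all 10 pairs of cultures included PPID, a cyclophilin of the HSP90 complex, which averaged 35.4 CPM in OLA+Veh and 26.9 CPM in Veh+Veh, and 31.5 CPM in OLA+BTC and 23.5 CPM in Veh+BTC. The ribosomal protein gene RPS12 averaged 1335 CPM in OLA+Veh and 1132 CPM in Veh+Veh, and 1288 CPM in OLA+BTC and 953.5 CPM in Veh+BTC. Among those lower in all 10 pairs was VASN, a TGF-β-binding protein, at 26.8 CPM in OLA+Veh and 35.6 CPM in Veh+Veh, and 30.0 CPM in OLA+BTC and 36.6 CPM in Veh+BTC. These genes were named after their values were seen, and none was called by limma.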
